A study of Mus musculus with 12 samples.

Results

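The genes described here encode the ID proteins and the E proteins: Id1, Id2 and Id3, and Tcf3, Tcf4 and Tcf12. They are 6 of the 51826 mouse genes counted, taken by symbol with earlier results of these data known. Their reads were followed in all 12 libraries of a study on RPL12, a protein of the large ribosomal subunit, in a mouse B cell lymphoma line. 5 of the 6 genes passed the filter on low counts and were tested, and Id1 did not pass and is given by its reads.

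The cells were 19DN, a reporter-negative subline of the lymphoma line 19PP, which grew out in a Rag2-/- γC-/- host that had received Cγ1-Cre; Myc/P110*flSTOP bone marrow. Every group therefore carried the Cre and the Myc and P110 alleles, with GFP and hCD2 removed by Flp recombinase. RPL12 S38A has alanine at serine 38, a residue that can then no longer be phosphorylated, and S38D has aspartate, which carries a negative charge. The 6 groups were S38A mitotic, S38A asynchronous, S38D mitotic, S38D asynchronous, WT mitotic and WT asynchronous cells, with 2 libraries in each. Mitotic cells had spent 8 h in nocodazole at 100 ng/mL and 10 min in drug-free medium, and cells were collected in cycloheximide at 100 µg/mL. Asynchronous cells had no nocodazole, so that cell state and drug cannot be told apart. The labels do not say whether a mutant line is 1 clone, nor whether the 2 libraries of a group came from separate cultures. The p-values then measure the spread between these libraries, which may be technical.

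E proteins are helix-loop-helix transcription factors that bind the E-box, CANNTG, as dimers, in B cells mostly with one another. ID proteins have the dimerisation domain without the basic region that contacts DNA, and a dimer of an ID with an E protein does not bind. In the B lineage the E protein of Tcf3 is needed for commitment, while Id2 is best known for the development of natural killer and innate lymphoid cells and Id3 as a target of antigen receptor signals, and in human Burkitt lymphoma as a gene often mutated.

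The libraries held between 3432875 and 6587997 reads on genes, with a median of 5548100. Levels are given as counts per 1000000 gene reads (CPM) after TMM scaling, which assumes that most genes do not differ between libraries. The reads come from the 3′ ends of transcripts and do not show codon 38, and Rpl12 itself was read at 43.3 to 74.4 CPM in mitotic libraries and 28.3 to 44.7 CPM in asynchronous ones. The pair of S38D asynchronous libraries differed by 0.592 (root mean square of log2 CPM over 7062 genes) and the WT mitotic pair by 0.404, against 0.208 to 0.255 in the other groups. In both pairs replicate 1 lay farther from the other lines in the same state, and the replicate differences (1 minus 2) of these pairs correlated at 0.786 across 7062 genes, and at 0.591 (S38D asynchronous) and 0.549 (WT mitotic) with that of S38A mitotic cells. Many results that turn on these libraries, but not all, are given with and without them, in a comparison chosen after the data were seen. All 10 B cell markers had reads and 9 passed the filter, while Blk had only 19 reads over the 12 libraries. Their summed level was 1569 to 2360 CPM in mitotic libraries and 2622 to 3667 CPM in asynchronous ones. Of 18 markers of T, natural killer and innate lymphoid cells, 10 had no read in any library, among them Cd3e, Cd4, Ncr1 and Il7r. The summed level of those 18 markers ran between 3.51 and 7.80 CPM in mitotic libraries and between 4.95 and 9.48 CPM in asynchronous ones. In bulk RNA, fewer cells of a type and less RNA per cell cannot be told apart.

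Id2 carries most of what follows, and its upstream sequence is shown for that reason. The gene lies on the minus strand at chr12:25093799-25097140 (GRCm38), and the window, from RefSeq on GRCm38.p6, holds the 89 bases at chr12:25096254-25096342, the part of the 250 bases before the RefSeq start that no exon of the gene in GENCODE M21 covers. It lies within the gene's own span. Capitals mark a BMP SMAD motif, GGCGCC, at -231 and an E-box of the form that E proteins bind, CAGCTG, at -196, both counted from the RefSeq start.
Id2: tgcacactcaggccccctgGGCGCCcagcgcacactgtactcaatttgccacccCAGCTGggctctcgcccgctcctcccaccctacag
The motifs searched on both strands were the E-box CANNTG, its E protein form CAGCTG or CAGGTG, the BMP SMAD motif GGCGCC, the cyclic AMP response element TGACGTCA, the EGR box GCGGGGGCG and the SMAD palindrome GTCTAGAC. Among 32851 promoter windows cut to the same place and length, 2.73% held GGCGCC, 10.5% held CAGCTG or CAGGTG and 33.0% held any CANNTG, of which CAGCTG is one case. A match is a run of letters and not evidence of binding. Of the other windows, none of Tcf3 or Tcf12 held GGCGCC. A Tcf12 window held CAGCTG or CAGGTG at -240, as did 22.9% of windows of its place and length. The Tcf3 window held a CANNTG at -54, as did 64.7% of such windows. For Id3 no motif result is given.

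**Figure D1:**
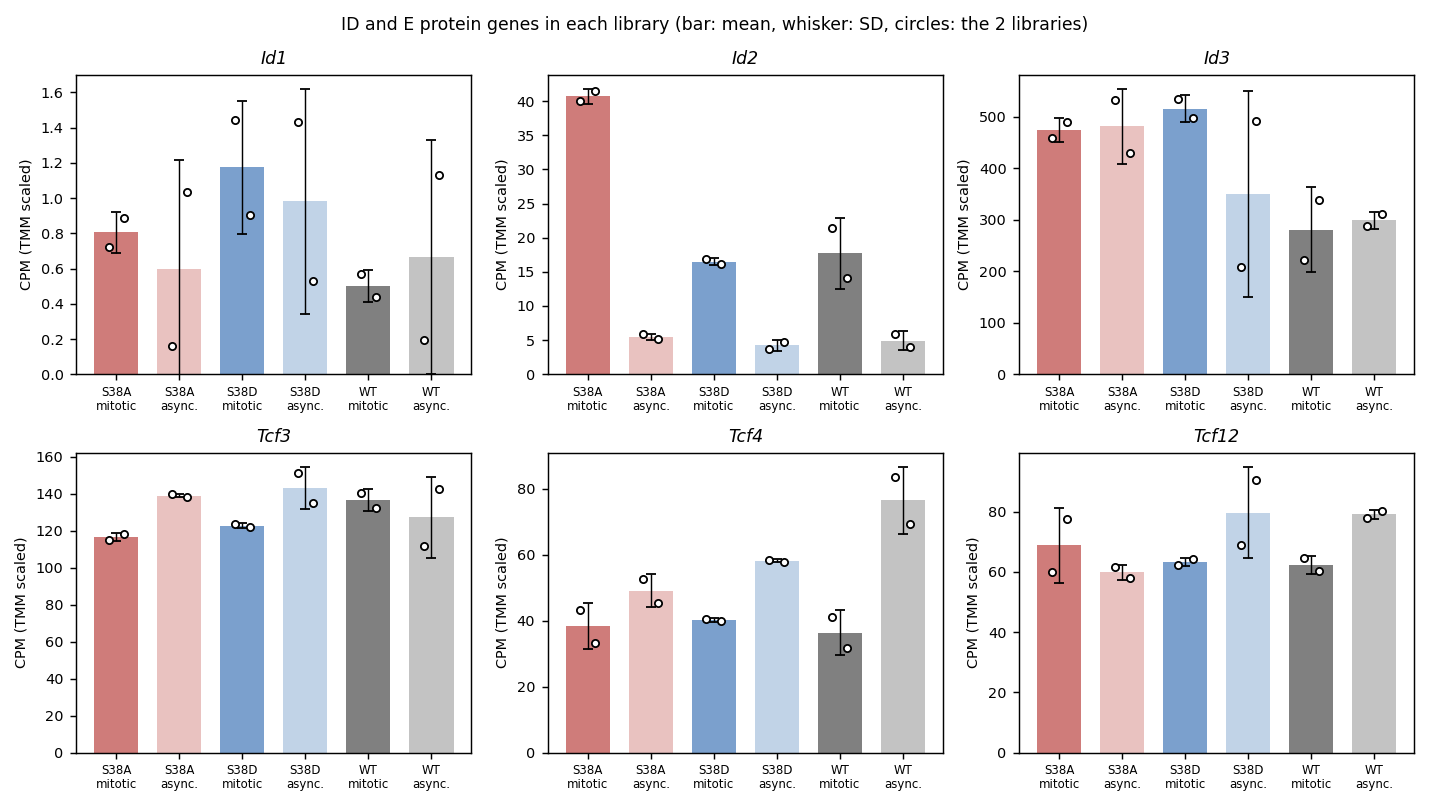
TMM-scaled CPM of the 6 genes in the 6 groups of line and state, 1 panel a gene with an axis of its own that starts at 0. Bars are means, whiskers the SD, and circles the 2 libraries of a group. The mitotic bars of Id2 stand at 16.5 to 40.7 CPM against 4.22 to 5.50 CPM in asynchronous cells, and those of Tcf4 at 36.4 to 40.2 CPM against 49.1 to 76.6 CPM.

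Id2 rose in mitotic cells of all 3 lines. In S38A it was read at 40.0 and 41.5 CPM in mitotic libraries (221 and 234 reads) and at 5.83 and 5.17 CPM in asynchronous ones (37 and 30 reads). In S38D the mitotic libraries held 16.9 and 16.1 CPM (82 and 89 reads) and the asynchronous ones 3.66 and 4.77 CPM (23 and 27 reads). In WT the mitotic libraries held 21.3 and 14.0 CPM (113 and 64 reads) and the asynchronous ones 5.87 and 3.97 CPM (30 and 14 reads). Every mitotic library was above every asynchronous one, and the asynchronous WT libraries overlapped those of both mutants. Over the mean of the 3 lines, Id2 was at 25.0 ± 12.4 CPM in mitotic cells and 4.88 ± 0.926 CPM in asynchronous cells (SD, n = 6 each), a log2 difference of 2.22 with SE 0.146, or 4.66-fold (adjusted p = 1.09e-08, edgeR's quasi-likelihood test with Benjamini-Hochberg adjustment over 10477 genes, as throughout). The log2 difference was 2.88 in S38A (SE 0.237, adjusted p = 9.13e-07), 1.97 in S38D (SE 0.257, adjusted p = 4.77e-05) and 1.82 in WT (SE 0.263, adjusted p = 0.000198). Ranked by that difference from the most raised of the 10477 genes, Id2 had rank 31 in S38A, 115 in S38D and 122 in WT. Each of these 4 calls held in all 18 alternative fits of the same counts.

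The share of Id2 among the reads of Id1, Id2 and Id3 within a library needs no scaling between libraries. It was 3.06% to 8.75% in mitotic libraries (median 5.88%) and 0.961% to 2.0% in asynchronous ones (median 1.22%), with no overlap. The 2 mitotic libraries of S38A held 8.01% and 7.79%, those of S38D 3.06% and 3.14%, and those of WT 8.75% and 3.97%. WT mitotic replicate 1, at 8.75%, was above both S38A mitotic libraries, and it was the WT mitotic library with the lower Id3.

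Id2 also differed between the lines within mitosis, where S38A stood above both others. S38A mitotic cells held 40.7 ± 1.08 CPM, against 17.7 ± 5.16 CPM in WT mitotic cells (SD, n = 2 each), a log2 difference of 1.19 (SE 0.212, adjusted p = 0.00108). S38D mitotic cells held 16.5 ± 0.541 CPM, which was 1.30 lower on the log2 scale than in S38A mitotic cells (difference -1.30, SE 0.213, adjusted p = 0.00063). Between S38D and WT mitotic cells the log2 difference of Id2 was -0.11, with a 95% interval of -0.58 to 0.36. Without the WT mitotic and S38D asynchronous libraries that lay far from their replicates, the differences of S38A were called as well, and the one between S38D and WT was 0.21 (adjusted p = 0.706). In asynchronous cells the log2 difference of Id2 was 0.13 between S38A and WT (95% interval -0.49 to 0.75), -0.26 between S38D and WT (-0.90 to 0.38) and -0.39 between S38D and S38A (-0.99 to 0.21), and none was called.

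The mitotic change of Id2 was not shown to differ between the lines. It was 1.06 larger in S38A than in WT on the log2 scale (SE 0.363, adjusted p = 0.145), 0.91 smaller in S38D than in S38A (difference -0.91, SE 0.358, adjusted p = 0.506) and 0.15 larger in S38D than in WT (SE 0.375, adjusted p = 0.85). The first of these passed the threshold in 2 of 18 alternatives, at 1.50 with spike-in scaling (adjusted p = 0.0429) and at 1.36 without both distant libraries (adjusted p = 0.0218).

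Id3 was the member with the most reads, between 1097 and 3382 in a library, and it did not pass the test in any of the 13 comparisons. It lies at chr4:136143497-136145755 on the plus strand. In S38A it was read at 458 and 490 CPM in mitotic libraries and at 533 and 430 CPM in asynchronous ones. In S38D the mitotic libraries held 534 and 497 CPM and the asynchronous ones 209 and 491 CPM. In WT the mitotic libraries held 222 and 339 CPM and the asynchronous ones 287 and 311 CPM. The mutant lines were above all WT libraries in 7 of their 8 libraries, and the exception was replicate 1 of S38D asynchronous cells, at 209 CPM, below every other library. Its mitotic change over the mean of the 3 lines was 0.15 on the log2 scale (95% interval -0.40 to 0.69), and -0.05 with spike-in scaling.

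The spread of Id3 was set by the libraries named above. Its replicates differed by 1.23 on the log2 scale in S38D asynchronous cells and by 0.61 in WT mitotic cells, and by 0.31 or less in the other groups. With all libraries the log2 difference from WT was 0.69 in S38A asynchronous cells (SE 0.394, adjusted p = 0.272), 0.23 in S38D asynchronous cells (SE 0.394, adjusted p = 0.761), 0.76 in S38A mitotic cells (SE 0.395, adjusted p = 0.261) and 0.88 in S38D mitotic cells (SE 0.395, adjusted p = 0.311). Without both distant libraries the differences from WT were 0.72 in S38A asynchronous cells and 0.73 in S38D asynchronous cells. In mitotic cells they were then 0.46 in S38A and 0.59 in S38D. That fit rests on a lone library for S38D asynchronous and for WT mitotic cells, which is taken to vary like the other groups. The result in S38D asynchronous cells turned on which of its libraries was left out. With only replicate 2 of that group left out, its difference was -0.47 from WT and -1.20 from S38A. The mitotic change in S38D was then 1.29.

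Id1 was barely read, and Id4, the remaining gene of the family, had no read in any library. Id1, at chr2:152736251-152737410 on the plus strand, had 2 to 7 reads in a mitotic library and 1 to 9 in an asynchronous one. At this depth 3 reads correspond to 0.455 to 0.874 CPM without scaling, and no difference in Id1 was detectable.

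**Figure D2:**
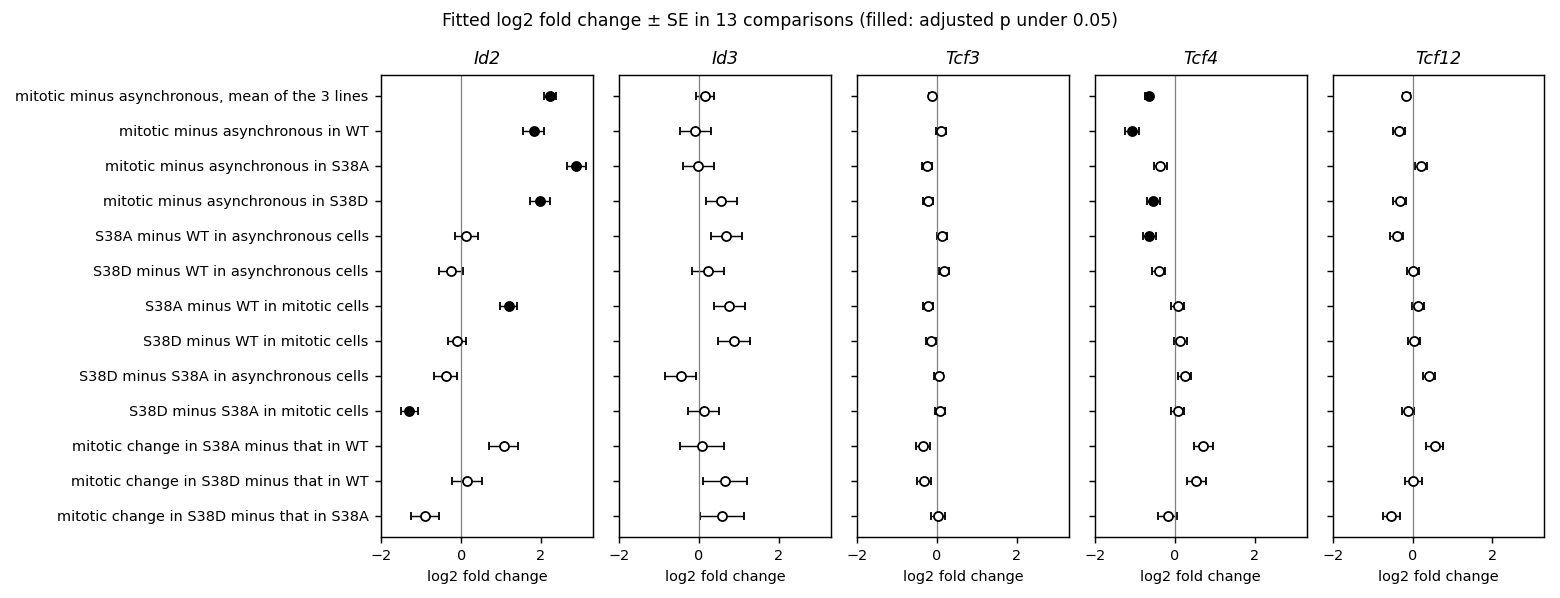
Fitted log2 fold change of the 5 tested members in the 13 comparisons, with whiskers of 1 SE, and filled circles where the adjusted p was under 0.05. Id2 is filled in all 4 comparisons of mitotic with asynchronous cells and in both that set S38A against another line in mitosis, Tcf4 in 3 of the first 4 and between S38A and WT in asynchronous cells, and Id3, Tcf3 and Tcf12 in none.

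Tcf4, which encodes the E protein known for the development of plasmacytoid dendritic cells and for its part in mature B cells, fell in mitotic cells. It lies at chr18:69343356-69689079 on the plus strand. In S38A it was read at 43.2 and 33.3 CPM in mitotic libraries (239 and 188 reads) and at 52.6 and 45.5 CPM in asynchronous ones (334 and 264 reads). In S38D the mitotic libraries held 40.6 and 39.9 CPM (197 and 220 reads) and the asynchronous ones 58.6 and 58.0 CPM (368 and 328 reads). In WT the mitotic libraries held 41.2 and 31.6 CPM (218 and 144 reads) and the asynchronous ones 83.7 and 69.4 CPM (428 and 245 reads). All 6 mitotic libraries were below all 6 asynchronous ones, with overlapping mitotic levels in the 3 lines and the highest asynchronous levels in WT. The mean of the 3 lines was 38.3 ± 4.68 CPM in mitotic cells and 61.3 ± 13.5 CPM in asynchronous cells (SD, n = 6 each), a log2 difference of -0.66 (SE 0.0961, adjusted p = 4.76e-05) that was called in all 18 alternatives.

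By line, the mitotic change of Tcf4 was -0.36 in S38A (SE 0.166, adjusted p = 0.165), -0.53 in S38D (SE 0.166, adjusted p = 0.0251) and -1.07 in WT (SE 0.168, adjusted p = 0.000348). Without both distant libraries the change in S38A was -0.38. The call in S38D was lost with DESeq2 (adjusted p = 0.0731) and without either S38D mitotic library (adjusted p = 0.0929 without replicate 1 and 0.129 without replicate 2). The change in S38A minus that in WT was 0.71 (SE 0.236, adjusted p = 0.136), and it was called in 4 of 18 alternatives, among them spike-in scaling (1.17, adjusted p = 0.0282) and the fit without both distant libraries (0.87, adjusted p = 0.0176). In asynchronous cells Tcf4 was lower in S38A, at 49.1 ± 5.02 CPM, against 76.6 ± 10.1 CPM in WT (SD, n = 2 each), a log2 difference of -0.64 (SE 0.164, adjusted p = 0.0106). That call was lost without WT asynchronous replicate 1 (-0.50, adjusted p = 0.15) and without S38A asynchronous replicate 2 (-0.51, adjusted p = 0.135). S38D asynchronous cells held 58.3 ± 0.422 CPM, and the log2 difference from WT was -0.40 (SE 0.163, adjusted p = 0.141). In mitotic cells the difference from WT was 0.07 in S38A (95% interval -0.29 to 0.43) and 0.14 in S38D (-0.22 to 0.50).

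Tcf3, the E protein gene named above for B lineage commitment, lies at chr10:80409514-80433647 on the minus strand and passed the test in no comparison. It was read at 115 and 118 CPM in S38A mitotic libraries and at 140 and 138 CPM in S38A asynchronous ones. S38D mitotic libraries held 124 and 122 CPM and S38D asynchronous ones 151 and 135 CPM. WT mitotic libraries held 141 and 132 CPM and WT asynchronous ones 112 and 143 CPM. The mutant lines had their mitotic libraries below their asynchronous ones and WT did not, but the mitotic change in S38A minus that in WT, -0.36 (SE 0.175), had an adjusted p of 0.276. Over the mean of the 3 lines the change was -0.12 (95% interval -0.28 to 0.03, adjusted p = 0.175). In S38A the mitotic change of Tcf3 was -0.26, and -0.28 without both distant libraries.

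Tcf12, which encodes HEB, an E protein known for its role in thymocyte development, lies at chr9:71842688-72111871 on the minus strand and was likewise called in no comparison. S38A mitotic libraries held 60.0 and 77.6 CPM and S38A asynchronous ones 61.6 and 57.9 CPM. S38D mitotic libraries held 62.4 and 64.3 CPM and S38D asynchronous ones 68.9 and 90.3 CPM. WT mitotic libraries held 64.4 and 60.1 CPM and WT asynchronous ones 78.0 and 80.2 CPM. The lowest asynchronous pair was that of S38A, with a log2 difference from WT of -0.40 (SE 0.152, adjusted p = 0.0713) that was called at -0.37 (adjusted p = 0.0152) without both distant libraries. The mean mitotic change was -0.16 (95% interval -0.34 to 0.03, adjusted p = 0.166), and -0.23 without both distant libraries. Without them the mitotic change in S38D was -0.51, against -0.33 with all libraries. The difference of S38D from S38A in asynchronous cells was then 0.57, against 0.41 with all libraries.

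These small changes depended on the scaling. The spike-ins, RNA added in equal amount to equal amounts of total RNA, were 2.29% to 3.60% of gene reads, and scaling to them put the median log2 change of all tested genes at -0.20 in the mean of the 3 lines, at -0.46 in WT and at -0.47 between S38A and WT asynchronous cells. On that scale Tcf3 was at -0.30 (adjusted p = 0.0186) and Tcf12 at -0.34 (adjusted p = 0.0288) in the mean mitotic comparison. In WT mitotic cells Tcf3 was at -0.35, against 0.10 on the TMM scale. Tcf12 was called there at -0.79 for the mitotic change in WT (adjusted p = 0.00869). It was also called at -0.86 between S38A and WT asynchronous cells (adjusted p = 0.00571). The share of Tcf4 among E protein reads, which is free of scaling, was 14.1% to 19.8% in mitotic libraries (median 17.2%) and 18.8% to 30.6% in asynchronous ones (median 20.9%), and the ranges overlapped. The share of Tcf3 was 51.5% to 59.1% in mitotic and 40.9% to 57.2% in asynchronous libraries, and that of Tcf12 26.2% to 33.9% in mitotic and 23.9% to 31.9% in asynchronous libraries.

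**Figure D3:**
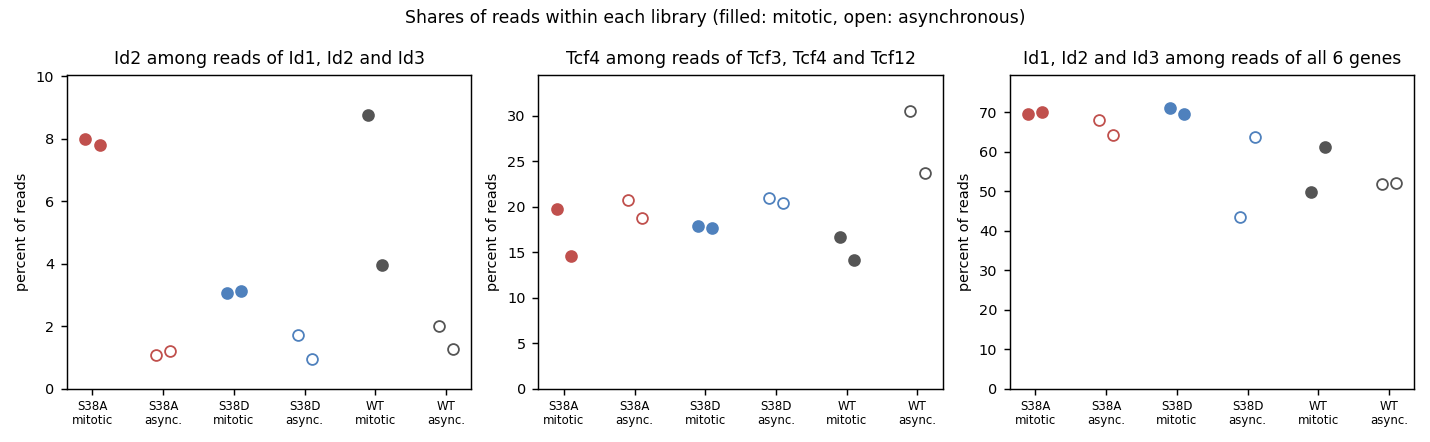
Shares of reads within each library, in percent on axes that start at 0, with filled circles for mitotic and open circles for asynchronous libraries. Id2 makes up 3.06% to 8.75% of ID gene reads in mitotic libraries and 0.961% to 2.0% in asynchronous ones, while the shares of Tcf4 among E protein genes and of ID genes among all 6 members overlap between the states.

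ID genes together held 49.7% to 70.9% of the 6 genes' reads in mitotic libraries (median 69.5%) and 43.5% to 68.0% in asynchronous ones (median 57.8%). Nearly all of these were Id3 reads. The 4 S38A libraries ran from 64.3% to 69.9%, the 2 S38D mitotic ones were at 70.9% and 69.4%, and WT ran from 49.7% to 61.2%, with S38D asynchronous replicate 1 lowest at 43.5%. These are read shares at 3′ ends, not ratios of protein.

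The number of members called was near the share of all genes called in several comparisons and above it in others, and with 5 members nothing is read from it. In the mean mitotic comparison 2 of the 5 tested members were called, where 42.1% of all tested genes were. In mitotic against asynchronous cells 1 of 5 was called in S38A (background 14.8%), 2 in S38D (26.4%) and 2 in WT (26.0%). Between S38A and WT 1 member was called in mitotic cells (17.0%) and 1 in asynchronous cells (21.2%), and between S38D and S38A 1 in mitotic cells (17.7%). The groups' separation is read the same way, and the 6 mitotic libraries lay wholly apart from the 6 asynchronous ones for 2 members, Id2 and Tcf4, and for 10.6% of all tested genes.

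No member was called by edgeR in the other comparisons. Between S38D and WT in asynchronous cells (background 8.99%) 1 member had an unadjusted p under 0.05 and DESeq2 called 0. Between S38D and WT in mitotic cells (4.56%) 0 members had such a p and DESeq2 called 0, and between S38D and S38A in asynchronous cells (7.22%) 1 had such a p and DESeq2 called 0. For the difference in mitotic change, 3 members had such a p between S38A and WT (0.993% of all genes called), 1 between S38D and WT (0.401%) and 2 between S38D and S38A (0.0382%), and DESeq2 called 0 in each.

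The genes whose log2 CPM over the 12 libraries was most like that of each member were drawn from 6845 with a mean of at least 10 CPM. Nearest to Id2 were Rgs2, a regulator of G protein signalling (r = 0.973), Tent5c, a poly(A) polymerase (0.965), and Il2ra, a chain of the interleukin receptor (0.965). Rgs2 averaged 522 CPM in S38A mitotic and 55.1 CPM in S38A asynchronous cells, 281 CPM in S38D mitotic and 33.5 CPM in S38D asynchronous cells, and 252 CPM in WT mitotic and 38.7 CPM in WT asynchronous cells. It thus shared with Id2 both the mitotic excess and the highest level in S38A mitotic cells. Nearest to Tcf4 were Nr3c1, the glucocorticoid receptor (0.951), Appl1, an endosomal adaptor (0.930), and Ppp3ca, a calcineurin catalytic subunit (0.929). Nr3c1 averaged 36.0 CPM in S38A mitotic and 38.8 CPM in S38A asynchronous cells, 35.8 CPM in S38D mitotic and 48.4 CPM in S38D asynchronous cells, and 33.5 CPM in WT mitotic and 58.4 CPM in WT asynchronous cells. For Id3 they were Ngdn, Srrm1 and Lrr1 (0.932 to 0.896), for Tcf3 Srf, Dcakd and Akt2 (0.938 to 0.852) and for Tcf12 Zfp830, Hmgxb4 and Immp1l (0.839 to 0.821). These correlations are descriptions over 12 libraries, the 2 of a pair sharing their group, with no test.

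Egr1 and Egr2 rose in mitotic cells. EGR proteins are immediate early transcription factors that connect antigen receptor signals to Id3. Of the 6 genes on the EGR list 4 were tested, and 2 rose and 0 fell in the mean mitotic comparison, where 20.5% of all genes rose and 21.6% fell. Egr1 was at 429 ± 151 CPM in mitotic cells and 104 ± 47.7 CPM in asynchronous cells (SD, n = 6 each), a log2 difference of 2.11 (SE 0.147, adjusted p = 6.47e-06), and Egr2 at 4.95 ± 2.01 CPM in mitotic cells and 0.877 ± 0.627 CPM in asynchronous ones, a difference of 2.60 (SE 0.317, adjusted p = 7.32e-06). Both rose in each line, though the asynchronous level of Egr2 was close to that of 3 reads, 0.455 to 0.874 CPM without scaling. Egr1 in asynchronous cells was also higher in the mutants, at 136 ± 4.23 CPM in S38A and 126 ± 52.2 CPM in S38D, against 50.6 ± 3.46 CPM in WT (SD, n = 2 each), with log2 differences from WT of 1.43 (adjusted p = 0.00586) and 1.31 (adjusted p = 0.0191). Both of these calls were lost with spike-in scaling, at 0.97 in S38A (adjusted p = 0.0759) and 0.97 in S38D (adjusted p = 0.114), and without WT asynchronous replicate 1, and the one in S38D also without WT asynchronous replicate 2. The EGR corepressor genes Nab1 (-0.11) and Nab2 (-0.24) were not called in the mean mitotic comparison. In S38A alone 2 genes of the list were higher in mitotic cells and 1 was lower (6.72% and 8.06% of all genes). The lower one was Nab1 or Nab2, as Egr1 and Egr2 rose.

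BMP and TGF-beta ligands act through SMAD factors on Id1, Id2 and Id3 in many cell types. Of 34 genes on that list 19 were tested, and 4 rose and 2 fell in the mean mitotic comparison (20.5% and 21.6% of all genes). The median was 0.05 against -0.02 for all genes. Smad4, the SMAD shared by both branches, was at 60.4 ± 5.73 CPM in mitotic cells and 46.2 ± 4.91 CPM in asynchronous ones (log2 0.39, adjusted p = 0.00176), and Skil, a repressor of SMAD signals, was at 0.42 (adjusted p = 0.0161). The ligand Tgfb1 was at 35.5 ± 8.20 CPM in mitotic cells and 57.2 ± 11.1 CPM in asynchronous ones (-0.70, adjusted p = 7.3e-06), and the receptor Tgfbr1 was at -0.85 (adjusted p = 0.00635). With spike-in scaling 0 rose and 4 fell (9.88% and 31.9% of all genes), with Smad4 at 0.21 (adjusted p = 0.136). With DESeq2 1 rose and 1 fell (15.3% and 16.2%). Bmp4, Bmp7, Acvr1 and Smad9 had no read.

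Tissue-restricted bHLH partners of the E proteins were mostly unread, and 30 of 46 had no read in any library, among them Tal1 and Msc. Of 6 tested, 1 rose and 1 fell in the mean mitotic comparison (20.5% and 21.6% of all genes). Lyl1, a partner used in haematopoietic cells, was at 74.2 ± 6.19 CPM in mitotic cells and 101 ± 28.8 CPM in asynchronous ones (-0.41, adjusted p = 0.00666). In asynchronous cells Lyl1 was higher in S38A, at 124 ± 6.96 CPM, against 72.3 ± 6.81 CPM in WT (0.78, adjusted p = 0.00833), a call lost with spike-in scaling (0.32, adjusted p = 0.167) and without WT asynchronous replicate 1 or S38A asynchronous replicate 2. Ascl2 was at 3.24 ± 0.839 CPM in mitotic cells and 2.04 ± 1.04 CPM in asynchronous ones (0.76, adjusted p = 0.025), and its call was lost with DESeq2 and with spike-in scaling.

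Among coregulators of E proteins, 13 of 17 genes were tested, and 4 rose and 4 fell (20.5% and 21.6% of all genes), with a median of -0.04. Kat2a, an acetyltransferase, was at 156 ± 28.6 CPM in mitotic cells and 90.5 ± 9.04 CPM in asynchronous ones (0.77, adjusted p = 1.72e-06), and Cbfa2t3, an ETO family corepressor, at 18.2 ± 1.98 CPM in mitotic cells and 31.5 ± 4.55 CPM in asynchronous ones (-0.79, adjusted p = 2.9e-05). The related corepressor gene Cbfa2t2 was at 0.39 (adjusted p = 0.0107) and Lmo4, a LIM adaptor, at 0.24 (adjusted p = 0.00667). With spike-in scaling 1 rose and 5 fell (9.88% and 31.9% of all genes), and with DESeq2 2 rose and 2 fell (15.3% and 16.2%). Of 9 genes that act on the stability of ID and E proteins all were tested, and 0 rose and 3 fell (20.5% and 21.6% of all genes). With DESeq2 1 fell (16.2% of all genes), with spike-in scaling 5 (31.9%), without a filter 5 (12.6%), and 1 to 5 when a library was left out. The largest of the named changes was that of Fzr1, an activator of the anaphase-promoting complex, at 90.1 ± 15.0 CPM in mitotic cells and 179 ± 34.3 CPM in asynchronous ones (-0.98, adjusted p = 1.22e-07), and it fell in each line. The ubiquitin ligase gene Huwe1 was at -0.19 (adjusted p = 0.0338) and Usp1, which removes ubiquitin from ID proteins, at -0.30 (adjusted p = 0.043), calls that held in 11 and 9 of 18 alternatives. Cdc20, the other activator of that complex, was at -0.17 (adjusted p = 0.0511).

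**Figure D4:**
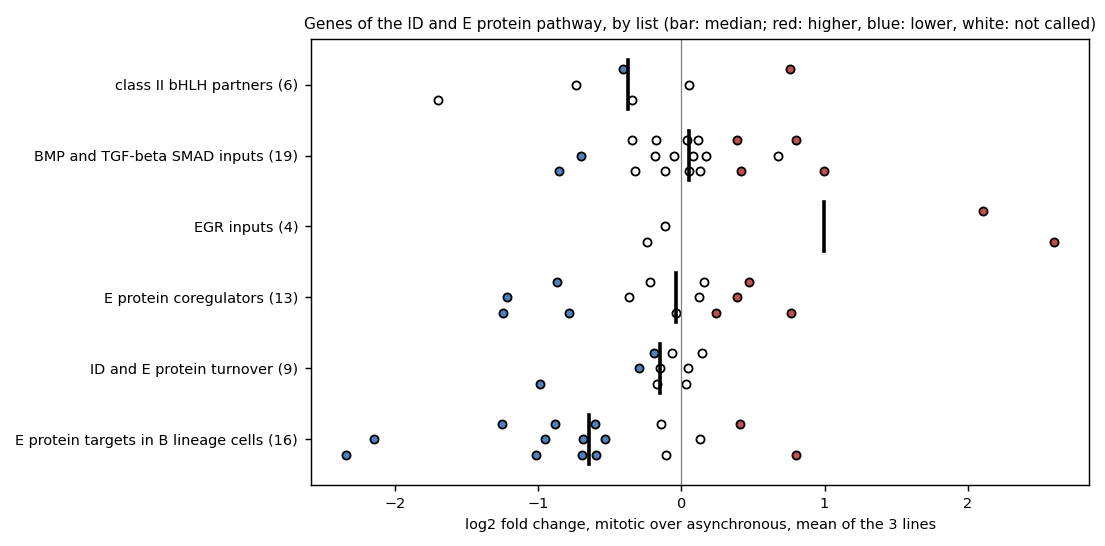
Log2 fold change of mitotic over asynchronous cells (mean of the 3 lines) for the tested genes of 6 lists, 1 circle a gene, red where higher and blue where lower at adjusted p under 0.05, white where not called, with a bar at the list's median. The median lies at -0.65 for E protein targets and at 1.00 for the 4 EGR genes, against -0.02 for all genes tested.

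Genes known as E protein targets in B lineage cells were mostly lower in mitotic cells. Of 22 listed, 16 were tested, and 2 rose and 11 fell in the mean mitotic comparison (20.5% and 21.6% of all genes). The median was -0.65 against -0.02 for all genes. With spike-in scaling 0 rose and 12 fell (9.88% and 31.9% of all genes). Vpreb3, a surrogate light chain family gene, was at 8.83 ± 3.77 CPM in mitotic cells and 42.1 ± 4.10 CPM in asynchronous ones (-2.34, SE 0.118, adjusted p = 5.4e-10). The coactivator gene Pou2af1 was at 2007 ± 436 CPM in mitotic cells and 4788 ± 1072 CPM in asynchronous ones (-1.25, SE 0.0730, adjusted p = 2.63e-09), and the transcription factor gene Ebf1 (-0.96) fell as well. By line 1 rose and 10 fell in S38A (6.72% and 8.06% of all genes), 1 rose and 9 fell in S38D (11.6% and 14.8%), and 1 rose and 12 fell in WT (13.4% and 12.7%).

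The B cell markers moved with that list, and 0 of 9 tested rose and 8 fell (20.5% and 21.6% of all genes). Their summed level was 1569 to 2360 CPM in mitotic libraries and 2622 to 3667 CPM in asynchronous ones. Among the genes on both lists are Cd79a, Cd79b, Blnk, Ebf1 and Pax5. Among plasma cell markers 2 of 5 rose, Sdc1 (0.93) and Irf4 (0.41, lost with spike-in scaling), and 3 fell, among them Xbp1 (-0.69) and Jchain (-0.37). With DESeq2 2 fell (16.2% of all genes), without a filter 2 (12.6%) and with spike-in scaling 3 (31.9%). Markers of myeloid cells summed to 271 to 469 CPM in mitotic libraries and 229 to 367 CPM in asynchronous ones, nearly all from Cst3, and Itgam, Cd14, Elane, S100a8 and S100a9 had no read. Stromal, epithelial and erythroid markers summed to 2.83 to 4.34 CPM in mitotic libraries and 2.55 to 6.73 CPM in asynchronous ones. The part of these markers in the results was not tested.

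Between the lines the E protein targets did not move as one. In asynchronous S38A against WT, the pair in which Tcf4 was lower, 9 of 16 targets were higher and 0 lower, where 11.7% of all genes were higher and 9.54% lower, and the median was 0.38 against -0.02 for all genes. These directions depended on the scaling. With spike-in scaling 2 targets were higher and 3 lower, where 1.93% of all genes were higher and 29.7% lower, and the median was -0.07 against -0.47 for all genes. The B cell markers, which share genes with the list, were higher for 6 of 9 and lower for 0 in the same pair, with a median of 0.38, and with spike-in scaling higher for 2 and lower for 1. Their part in the count was not tested. Xbp1, a transcription factor of plasma cells, stood at 371 ± 22.0 CPM in S38A and 210 ± 18.9 CPM in WT (SD, n = 2 each), a log2 difference of 0.82 (adjusted p = 0.000143), and Ptpn6, the phosphatase SHP-1 gene, at 278 ± 5.42 CPM in S38A and 161 ± 16.5 CPM in WT (0.79, adjusted p = 0.00135). With spike-in scaling both calls were lost, at 0.36 (adjusted p = 0.105) for Xbp1 and 0.32 (adjusted p = 0.118) for Ptpn6. In mitotic S38A against WT, the pair in which Id2 was higher, 7 were higher and 2 lower (8.31% and 8.72% of all genes), with spike-in scaling 4 and 2 (5.02% and 5.79%), and of the B cell markers 4 were higher and 0 lower, with a median of 0.52. Ebf1 was at 149 ± 11.5 CPM in S38A and 80.6 ± 7.37 CPM in WT (0.89, adjusted p = 6.52e-05), while Ccnd3 was at -0.74 (adjusted p = 0.00108). S38D against WT gave 3 higher and 3 lower in asynchronous cells (4.87% and 4.12% of all genes), with spike-in scaling 0 and 3 (0.554% and 12.5%), and 1 higher and 2 lower in mitotic cells (1.15% and 3.41%). Irf4, a transcription factor of activated B cells and plasma cells, was at 60.1 ± 0.302 CPM in S38D and 97.9 ± 1.43 CPM in WT asynchronous cells (-0.71, adjusted p = 0.00221), and Vpreb3 at 6.08 ± 2.19 CPM in S38D and 13.4 ± 1.31 CPM in WT mitotic cells (-1.16, adjusted p = 0.00571), a call lost without WT mitotic replicate 1 or S38D mitotic replicate 2. S38D against S38A gave 0 higher and 2 lower in asynchronous cells (3.32% and 3.89% of all genes) and 2 higher and 6 lower in mitotic cells (7.51% and 10.2%). The comparisons with WT share the WT libraries, and none of these counts was tested as a list. When a library was left out, 5 to 9 targets were higher in S38A against WT asynchronous cells and 3 to 8 in mitotic cells, and in S38D against WT 0 to 7 in asynchronous and 0 to 4 in mitotic cells.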

How the data were processed

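The authors deposited raw counts of 3′ reads per gene and per ERCC spike-in for each of the 12 libraries, 51826 genes and 92 spike-ins. Per the labels, total RNA from cleared polysome lysates (1 µg, with spike-ins) went into QuantSeq 3′ FWD libraries, read for 51 cycles. Per the submitters' processing notes the tools were STAR 2.5.3a, cutadapt 1.12 and bcl2fastq 2.16.0.10, with mm10 as the build. For the counting program, its strand setting, its handling of reads with several hits and its annotation, the sources used here give nothing. Reads with several hits or from overlapping genes could shift a count. No exon of another gene overlaps a member's exons, and a gene inside a member's introns held at most 4 reads over all libraries.

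Gene IDs were matched to GENCODE M21 (51633, or 99.63%). Counts were fitted with edgeR 4.0.16 (R 4.3.3) by quasi-likelihood (robust, TMM factors 0.96 to 1.04), over 10477 genes kept by filterByExpr at a minimum count of 10, with 1 mean per group, 6 residual degrees of freedom, a median of 9.95 prior ones and a common coefficient of variation of 0.143. Spike-ins stayed out of library sizes and tests. A gene was called at a Benjamini-Hochberg adjusted p under 0.05 over all genes of a comparison. Log2 CPM for correlations used a prior count of 2. Alternatives were DESeq2 1.42.0, its size factors in edgeR, spike-in scaling, no filter, a replicate block, each library left out and, chosen after the data were seen, both distant libraries left out. The fitting was tested on simulated counts. Up to 4 genes of a list were named per comparison, by smallest adjusted p, and some listed genes are counted but not reported here by name. The members and lists were chosen with earlier results of these data known. Intervals cover the spread between libraries, and the depth of each library sets the lowest counts that can be told from 0.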

Additional observations from a re-analysis of the deposited data

How the results depend on the processing

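Of the 10 calls of members, 8 held in all 18 alternatives and 2 of Tcf4 were lost in some. The mitotic rise of Id2 in the mean and in each line, its excess in S38A over WT and S38D mitotic cells, and the falls of Tcf4 in the mean and in WT were the 8. Over the tested members and 13 comparisons, 1074 of the alternative values kept direction and side of the threshold, 32 newly passed it, 5 lost it and 59 changed sign, all of these below it. The cause was not tested.

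Spike-in scaling called 4 members in the mean mitotic comparison (41.8% of all genes on that scale), 2 between S38A and WT in asynchronous cells (31.7%), 1 between S38D and WT in asynchronous cells (13%) and 2 for the mitotic change in S38A minus that in WT (4.69%). It put the median of all genes at -0.20 in the mean mitotic comparison, -0.46 in WT, -0.12 in S38D, -0.47 between S38A and WT and -0.38 between S38D and WT asynchronous cells. Signs that changed with it were those of Id3 in the mean (-0.05) and in S38A (0.00), Tcf3 in WT (-0.35), Id2 (-0.30) and Tcf3 (-0.34) between S38A and WT, and Id3 (-0.10), Tcf3 (-0.23) and Tcf12 (-0.35) between S38D and WT asynchronous cells. Tcf12 between S38D and WT in mitosis was -0.02, and Tcf3 was 0.12, 0.03 and -0.09 in the differences of mitotic change S38A minus WT, S38D minus WT and S38D minus S38A. DESeq2 called 1 member in S38D mitotic cells. Without a filter Tcf12 was -0.02 for the mitotic change in S38D minus that in WT.

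Leaving out each library gave 1 to 3 members called in S38D mitotic cells, 0 to 3 between S38A and WT in asynchronous cells, and 0 to 1 between S38D and S38A in asynchronous cells and for the mitotic change in S38D minus that in WT. With the fit without both distant libraries included, the count was 1 to 3 in S38A mitotic cells, 0 to 1 between S38D and WT in either state, 1 to 2 between S38A and WT in mitotic cells, 0 to 2 for the mitotic change in S38A minus that in WT and 0 to 1 for that in S38D minus S38A. The ranges of changes that crossed 0 follow. In the mean Id3 ran from -0.02 to 0.40. In WT Id3 ran from -0.43 to 0.21 and Tcf3 from -0.07 to 0.31, and in S38A Id3 ran from -0.18 to 0.11 and Tcf12 from -0.02 to 0.36. In asynchronous cells S38A minus WT ran from -0.05 to 0.47 for Id2 and -0.04 to 0.35 for Tcf3, and S38D minus WT from -0.46 to 0.08 for Id2, -0.47 to 0.73 for Id3 and -0.16 to 0.21 for Tcf12. S38D minus S38A there ran from -1.20 to 0.01 for Id3 and -0.06 to 0.12 for Tcf3. In mitotic cells S38A minus WT ran from -0.13 to 0.26 for Tcf4 and -0.06 to 0.31 for Tcf12, S38D minus WT from -0.34 to 0.21 for Id2, -0.00 to 0.33 for Tcf4 and -0.00 to 0.06 for Tcf12, and S38D minus S38A from -0.09 to 0.28 for Tcf4 and -0.28 to 0.09 for Tcf12. The mitotic change in S38A minus that in WT ran from -0.26 to 0.39 for Id3. In S38D minus that in WT it ran from -0.19 to 0.46 for Id2, -0.14 to 1.36 for Id3 and -0.17 to 0.19 for Tcf12, and in S38D minus that in S38A from -0.03 to 0.14 for Tcf3 and -0.32 to 0.05 for Tcf4.

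With the replicate block the members called were 2 in the mean mitotic comparison, as without it, and no member's call changed. Same-numbered libraries of S38D asynchronous, WT mitotic and S38A mitotic cells deviated together (0.549 to 0.786 over 7062 genes), the first 2 being the groups of the distant libraries. Of 15 pairs of groups the other 12 were not above 0.1, and 3 were below -0.1 (lowest -0.399), so the numbers were not taken as pairs. The block moved the count of all genes called for the mitotic change in S38D minus that in WT to 95, against 42.

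Counts of all genes called moved by over 1.5 times with DESeq2 to 987 (main 1548) in S38A mitotic cells, 1789 (2762) in S38D mitotic cells, 1458 (2223) between S38A and WT and 623 (942) between S38D and WT in asynchronous cells, 1091 (1785) and 295 (478) for those pairs in mitotic cells, 451 (756) and 1065 (1851) between S38D and S38A in asynchronous and mitotic cells. With spike-in scaling they were 932 in S38A mitotic cells, 1133 between S38A and WT in mitotic cells, 402 and 1213 between S38D and S38A in asynchronous and mitotic cells. Without a filter they were 1585 between S38D and WT in asynchronous and 718 in mitotic cells. For the mitotic changes S38A minus WT, S38D minus WT and S38D minus S38A, the counts were 104, 42 and 4, with spike-in scaling 491, 0 and 0, without a filter 616, 726 and 23, and with DESeq2 170, 126 and 13. Without both distant libraries the count was 2914 in S38A mitotic cells, 3900 between S38A and WT and 1920 between S38D and S38A in asynchronous cells, 3204 between S38D and S38A in mitotic cells, and 795 and 157 for the mitotic changes S38A minus WT and S38D minus S38A. Leaving out 1 library moved 12 of 13 counts by over 1.5 times, and the mean mitotic comparison (3843 to 5010) was the exception. The ranges were 1105 to 3786 in WT (main 2727), 625 to 2454 in S38A and 1475 to 3757 in S38D mitotic cells, 873 to 3381 between S38A and WT, 235 to 3212 between S38D and WT and 217 to 1382 between S38D and S38A in asynchronous cells, 796 to 2594, 182 to 1087 and 707 to 2732 for those pairs in mitotic cells, and 6 to 1285, 0 to 2757 and 0 to 323 for the mitotic changes S38A minus WT, S38D minus WT and S38D minus S38A.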
